A study of Mus musculus with 9 samples.

Results

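The genes described here encode the extracellular matrix of the heart and the proteins that cut, cross-link and sense it: collagens, laminins, fibulins, fibrillins and microfibril proteins, fibronectin, periostin, Sparc, small leucine-rich proteoglycans, matrix metalloproteinases, Adamts proteinases, lysyl oxidases, tissue inhibitors of metalloproteinases (Timp) and discoidin domain receptors. They were selected by gene symbol, and no measured value entered the selection. The symbols took 104 probe sets of 73 genes out of 12488 probe sets and 8251 genes with a symbol of their own, and 24 of the 73 genes had more than 1 probe set. Each gene is represented by its brightest probe set over all arrays. By role there were 8 fibrillar collagens, 16 basement membrane genes, 16 other collagens, 12 fibre, microfibril and matricellular genes, 14 proteinases, 3 inhibitors, 2 cross-linking enzymes and 2 collagen receptors. Expression was measured in mouse ventricles on 1-colour oligonucleotide arrays, with 3 mice carrying a constitutively active phosphoinositide 3-kinase (PI3K) transgene (caPI3K), 3 carrying a dominant negative PI3K transgene (dnPI3K) and 3 non-transgenic mice (NTG) that served as controls for both. Relative to wild type littermates, heart size is given by the labels as 20% above in caPI3K mice and 17% below in dnPI3K mice. The age of the mice and the promoter that drove each transgene are not given in the sources used here.

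Fibroblasts make most of the fibrillar collagen of the heart, which forms the fibres between muscle layers and is cut by metalloproteinases that Timp proteins inhibit. Every cardiomyocyte and every capillary also rests on a basement membrane, a thin sheet of type IV collagen and laminin trimers. PI3K acts below the insulin and insulin-like growth factor receptors and sets heart size. Whether either kind of matrix is remodelled with heart size was not tested here. In bulk ventricle RNA, fewer cells of a type and less RNA per cell cannot be told apart.

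Cardiomyocyte content was read from 10 marker genes. Their summed intensity was 268656 to 284044 on caPI3K arrays, 259066 to 280374 on dnPI3K arrays and 270800 to 294309 on NTG arrays, so the groups overlapped. This sum does not test the ventricle label. Atrial markers, given further below, spread widely within the caPI3K and NTG groups. The dnPI3K arrays stood apart as a group on the first principal component (22.2% of the variance). Their array control for 18S ribosomal RNA also read 3303 to 8097, against 461.8 to 670.6 on NTG arrays, and their 18 spike-in control probe sets averaged 254.7 to 372.3, against 452 to 612 on NTG arrays. On the second component (13.8%), NTG replicate 2 stood apart from the other 8 arrays, and each call against NTG is therefore also given without it. The dnPI3K animals have a number series of their own, so series and genotype cannot be told apart. The caPI3K and NTG animals share a lower series with 2 mice per group and a higher one with 1 mouse per group. The part of these array differences in the results below was not tested.

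Of the 73 matrix genes, 63 could be tested through their brightest probe set. In the other 10 that probe set was too dim to test (Col4a3, Col4a4, Col22a1, Adamts1, Mmp7, Mmp8, Mmp9, Mmp10, Mmp16 and Mmp24), at 1.96 to 59.7 intensity units and above the floor of 35.34 on fewer than 3 of the 9 arrays. Mmp9 had a second probe set that could be tested, at 41.7 units or less on all arrays, with log2 fold changes of 0.06 for caPI3K and -0.08 for dnPI3K against NTG. In dnPI3K against NTG ventricles 3 matrix genes passed the threshold of an adjusted p of 0.05. Ddr2, a receptor for fibrillar collagen, and Col4a1, a chain of basement membrane collagen, fell to about 0.479 and 0.506 of the NTG level, and the laminin chain Lamb3 rose 2.72-fold. In caPI3K against NTG ventricles none of the 63 passed. Between caPI3K and dnPI3K ventricles 7 differed: Col1a1, Col4a1, Col8a1, Mfap5 and Ddr2 were higher in caPI3K, and Lamb3 and Timp3 were lower.

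These counts have to be read against the background of all 7480 genes tested through their brightest probe set. For dnPI3K against NTG, 3 of 63 matrix genes (4.76%) stood beside 2.22% of all genes, 1 higher (1% of all genes) and 2 lower (1.22%). For caPI3K against dnPI3K, 7 of 63 (11.1%) stood beside 3.46% of all genes, 5 higher (1.86%) and 2 lower (1.6%). For caPI3K against NTG, 0 of 63 stood beside 0.107% of all genes in the limma fit (0.0668% higher and 0.0401% lower), and at an unadjusted p under 0.05 there were 9 matrix genes (14.3%) beside 7.21% of all genes. The arrays of the groups did not overlap for 27 of 63 matrix genes in caPI3K against dnPI3K (42.9%, beside 24.5% of all genes), 18 of them higher in caPI3K (28.6%, beside 11.7%). The corresponding counts were 14 for dnPI3K against NTG (22.2%, beside 19.3%), of which 6 were higher (beside 10.2% of all genes) and 8 lower (beside 9.09%). For caPI3K against NTG they were 9 (14.3%, beside 12.6%), of which 6 were higher (beside 6.91%) and 3 lower (beside 5.71%). The median log2 fold change of the 63 genes was 0.16 in caPI3K against dnPI3K, -0.12 in dnPI3K against NTG and 0.02 in caPI3K against NTG, where all genes had medians of 0.00, 0.01 and 0.00. Over all 10645 probe sets, 3.24% passed in caPI3K against dnPI3K, 2.18% in dnPI3K against NTG and 0.0845% in caPI3K against NTG. The comparisons share arrays, so their values are not independent of each other. Without a filter on dim probe sets, over all 73 genes, 3 matrix genes (Col8a1, Ddr2 and Lamb3) passed in caPI3K against dnPI3K (4.11%, beside 1.96% of all 8251 genes). In dnPI3K against NTG it was 1 (Ddr2; 1.37%, beside 1.14%, a share near the background), and in caPI3K against NTG 0 (beside 0.0121%).

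**Figure D1:**
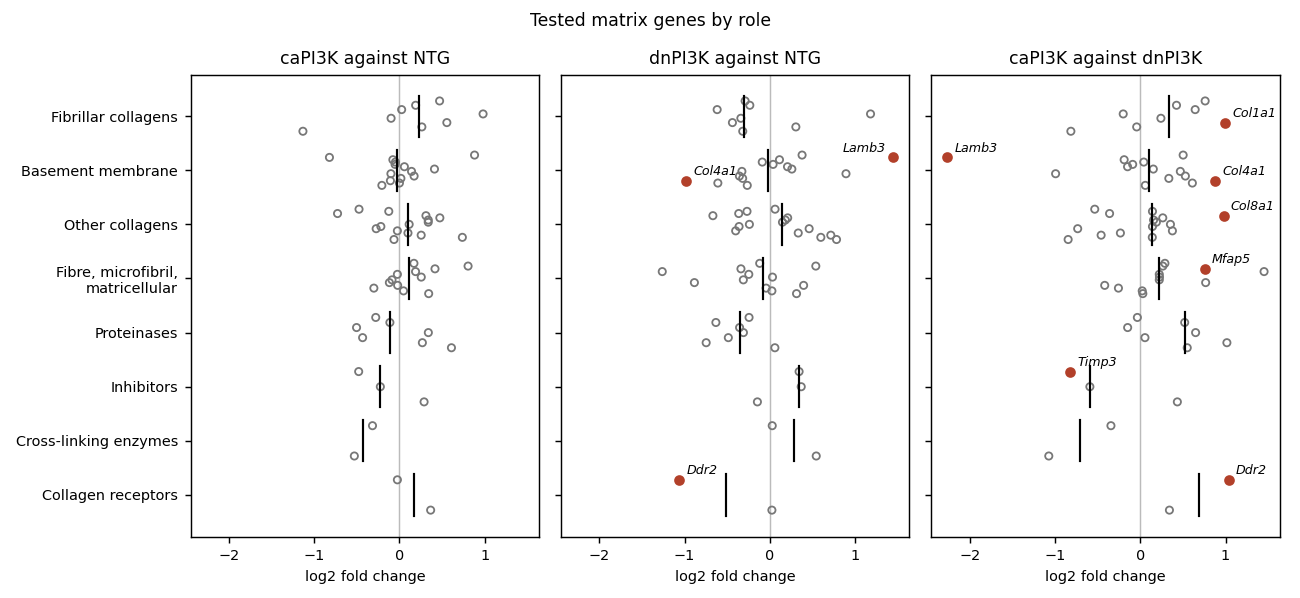
Log2 fold changes (x axis) of the 63 tested matrix genes in 3 comparisons, grouped by role (y axis); open points did not pass the threshold, filled and named points did, and the vertical bar is the median of the role. No gene passed in caPI3K against NTG, 3 did in dnPI3K against NTG and 7 did in caPI3K against dnPI3K.

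The start regions of 6 of the genes that carry these results, or of the partner of one, are shown: Col4a1 and Col4a2 because they lie head to head, and the others because they passed the threshold. The windows hold 300 bases, 250 before and 50 after the annotated start, from RefSeq (GRCm38.p6), and 48 of the 73 genes had such a window. Col4a1 (chr8:11312777-11313076, minus strand) and Col4a2 (chr8:11312555-11312854, plus strand) encode the chains that make up the common type IV collagen trimer, and they are transcribed in opposite directions from a shared stretch. Capitals mark the 78 bases that the windows share, each read on its own strand.
Col4a1: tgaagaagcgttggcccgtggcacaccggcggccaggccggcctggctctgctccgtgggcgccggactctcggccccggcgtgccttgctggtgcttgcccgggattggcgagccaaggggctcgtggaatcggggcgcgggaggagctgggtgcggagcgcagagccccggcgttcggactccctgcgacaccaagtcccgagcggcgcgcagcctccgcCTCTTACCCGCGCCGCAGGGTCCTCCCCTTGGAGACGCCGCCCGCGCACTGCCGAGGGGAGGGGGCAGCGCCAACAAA
Col4a2: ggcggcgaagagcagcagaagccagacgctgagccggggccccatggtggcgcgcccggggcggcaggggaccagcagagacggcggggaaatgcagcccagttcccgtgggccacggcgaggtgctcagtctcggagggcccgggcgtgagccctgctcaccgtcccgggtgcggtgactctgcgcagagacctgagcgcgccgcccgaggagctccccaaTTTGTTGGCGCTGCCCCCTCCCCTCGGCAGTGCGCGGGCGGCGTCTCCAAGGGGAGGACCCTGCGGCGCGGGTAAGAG

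In the windows of Ddr2 (chr1:170088895-170089194, minus strand), Col8a1 (chr16:57754688-57754987, minus strand), Lamb3 (chr1:193301744-193302043, plus strand) and Timp3 (chr10:86300162-86300461, plus strand), capitals mark matches on either strand to 4 motifs: the CCAAT box (CCAAT), the TATA box (TATAAA), the GC box (GGGCGG) and the core bound by FoxO factors (TGTTTAC), which Akt keeps out of the nucleus below PI3K.
Ddr2: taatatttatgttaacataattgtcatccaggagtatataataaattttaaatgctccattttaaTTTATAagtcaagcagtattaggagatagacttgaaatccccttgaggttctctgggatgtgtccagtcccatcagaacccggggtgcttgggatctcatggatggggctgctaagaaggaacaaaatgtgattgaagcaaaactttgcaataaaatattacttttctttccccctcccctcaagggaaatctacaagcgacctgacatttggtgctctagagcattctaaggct
Col8a1: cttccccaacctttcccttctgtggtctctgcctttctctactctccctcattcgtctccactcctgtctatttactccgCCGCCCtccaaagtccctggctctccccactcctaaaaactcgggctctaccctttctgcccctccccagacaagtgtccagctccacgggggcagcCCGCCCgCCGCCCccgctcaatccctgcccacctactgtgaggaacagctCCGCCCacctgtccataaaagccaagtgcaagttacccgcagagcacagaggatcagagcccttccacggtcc
Lamb3: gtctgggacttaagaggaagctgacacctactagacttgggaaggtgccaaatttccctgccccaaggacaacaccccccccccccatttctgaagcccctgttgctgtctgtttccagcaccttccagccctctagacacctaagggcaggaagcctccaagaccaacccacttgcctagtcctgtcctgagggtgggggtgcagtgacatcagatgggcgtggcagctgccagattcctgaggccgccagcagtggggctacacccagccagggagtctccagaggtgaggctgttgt
Timp3: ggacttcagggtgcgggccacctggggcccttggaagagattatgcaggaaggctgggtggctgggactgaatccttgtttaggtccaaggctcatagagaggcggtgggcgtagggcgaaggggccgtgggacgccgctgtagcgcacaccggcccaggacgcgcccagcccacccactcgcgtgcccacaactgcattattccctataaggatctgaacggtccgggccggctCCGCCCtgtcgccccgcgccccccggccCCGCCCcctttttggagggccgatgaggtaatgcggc

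The Ddr2 window is AT-rich (39% G and C) and holds 1 TATA match and no GC box, while those of Col8a1 and Timp3 hold 4 and 2 GC boxes, and that of Lamb3 holds none of the 4 motifs. The windows of Col4a1 and Col4a2, with 74% and 73.7% G and C, hold 1 CCAAT match each, with 1 GC box match in Col4a1 and 3 in Col4a2. The FoxO core was in none of the 6 windows printed. It was in 3 of the 60 matrix windows (5%, those of Col6a1, Mmp10 and Mmp13), beside 3.65% of all 32851 windows. A GC box was in 50% of the 60 matrix windows, beside 35.7% of all windows. For the TATA box the shares were 23.3% and 13.6%, and for the CCAAT box 31.7% and 37.4%.

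Among the fibrillar collagens, Col1a1, which encodes the alpha 1 chain of type I collagen, the main collagen of cardiac fibres, had normalized intensities of 2620, 2512 and 2084 in caPI3K ventricles, 1260, 1009 and 1362 in dnPI3K ventricles and 2035, 1193 and 1778 in NTG ventricles. Every caPI3K array lay above every dnPI3K array, and the NTG arrays overlapped the dnPI3K ones. Col1a1 was 1.99-fold higher in caPI3K than in dnPI3K (log2 fold change 0.99 ± 0.190 SE, adjusted p = 0.018), and neither group differed from NTG past the threshold (caPI3K 0.56 ± 0.190, dnPI3K -0.44 ± 0.190). Among animals of the lower number series the caPI3K difference from NTG was 0.72, and in the higher series it was 0.23. A second Col1a1 probe set had 1075, 1143 and 1387 in caPI3K, 660, 604 and 466 in dnPI3K and 1168, 986 and 1019 in NTG. On it dnPI3K lay below both other groups, and it fell in dnPI3K against NTG as well (-0.89 ± 0.154, adjusted p = 0.0171). Without NTG replicate 2 it was at -0.94 (adjusted p = 0.0454), while the brighter probe set was at 0.33 in caPI3K and -0.66 in dnPI3K against NTG, neither past the threshold. The call of the brighter probe set between caPI3K and dnPI3K was lost without caPI3K replicate 1 or 2 or dnPI3K replicate 2, with an adjusted p of at most 0.0841.

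The other fibrillar collagens did not pass through their brightest probe set. Col1a2, the partner chain of Col1a1, read 3030, 2947 and 2970 in caPI3K, 2746, 2674 and 2181 in dnPI3K and 3344, 3466 and 2802 in NTG. The dnPI3K arrays lay below the other arrays, but the changes were small (0.24 ± 0.112 in caPI3K against dnPI3K and -0.34 ± 0.112 in dnPI3K against NTG). This brightest Col1a2 probe set is of a type designed under relaxed rules. A dimmer Col1a2 probe set was at 0.14 ± 0.156 and 0.06 ± 0.156 in these comparisons, with overlapping arrays in both. Col3a1, the type III collagen of fine fibres, varied widely within NTG (1385, 666.2 and 1867), with 1175, 1468 and 1055 in caPI3K and 971.6, 696.2 and 704.1 in dnPI3K. Of the other 2 tested Col3a1 probe sets, the brighter was less spread, at 222, 275 and 294 in caPI3K, 146, 100 and 146 in dnPI3K and 295, 242 and 277 in NTG. It passed in dnPI3K against NTG (-1.07 ± 0.241, adjusted p = 0.0496) and in caPI3K against dnPI3K (1.02 ± 0.241, adjusted p = 0.0471), and it is of a type that can share sequence within a gene family. Without NTG replicate 2 the first of these calls was lost (-1.16, adjusted p = 0.0961), and the brightest Col3a1 probe set was at -1.04 (adjusted p = 0.0521). The minor fibre collagens Col5a1 and Col5a2 had no overlap between caPI3K and dnPI3K arrays, with differences of 0.42 ± 0.125 and 0.76 ± 0.327. A dimmer Col5a1 probe set was at 0.06 ± 0.180 in this comparison, with overlapping arrays. The cartilage collagens lay near the floor. Col2a1 read 78.5 to 115.5 in caPI3K and 70.6 to 131 in dnPI3K, which overlapped, against 27.6 to 52.7 in NTG. Col11a1 differed by -1.13 ± 0.441 in caPI3K against NTG, and Col11a2 stayed under 56 units on all arrays. Of the 8 fibrillar genes, read through their brightest probe sets, 5 had caPI3K arrays all above dnPI3K arrays (62.5%, beside 11.7% of all genes). The median of the 8 was 0.33.

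In the basement membrane, Col4a1 read 2304, 1572 and 1737 in dnPI3K ventricles, against 3731, 3135 and 4159 in NTG ventricles, while the caPI3K values were 3731, 3173 and 3299. The dnPI3K arrays all lay below the other 6. Col4a1 fell in dnPI3K (-0.98 ± 0.149, adjusted p = 0.00822), and it was 1.84-fold higher in caPI3K than in dnPI3K (adjusted p = 0.0108). Without NTG replicate 2 it changed by -1.10 in dnPI3K (adjusted p = 0.0171). With no filter on dim probe sets or no intensity trend the adjusted p was 0.0509 and 0.0552. Its partner Col4a2 read 3410, 3403 and 3871 in dnPI3K against 4730, 4395 and 4193 in NTG, with 5011, 4304 and 4183 in caPI3K. The dnPI3K values of Col4a2 were again the lowest, but the change was -0.32 ± 0.097 and did not pass (adjusted p = 0.14).

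The ratio of Col4a1 to Col4a2 within each array was compared after these values were seen, along with the ratios of Col1a1 to Col1a2 and of Ddr2 to Ddr1. On the log2 scale the Col4a1 to Col4a2 ratio averaged -0.94 ± 0.329 in dnPI3K and -0.28 ± 0.244 in NTG (SD, n = 3 each), a difference of -0.67 with no overlap between groups (two-sided exact permutation p = 0.1, the smallest that 3 against 3 arrays allow; 0.129 adjusted over 9 comparisons). No other basement membrane collagen passed. Col18a1, whose end fragment is endostatin, differed by -0.61 ± 0.244 in dnPI3K against NTG. Its dimmer tested probe sets were at 1.13 ± 0.314 (adjusted p = 0.104), 0.18 ± 0.234 and 0.04 ± 0.215. Col15a1 differed by -0.27 ± 0.140 and Col4a5, a chain of specialised membranes, by -0.36 ± 0.226.

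Laminins are trimers of an alpha, a beta and a gamma chain. Lamb3, a beta chain known from the basement membrane of skin and other epithelia, read 512.1, 1206 and 1040 in dnPI3K ventricles, against 371.3, 342.1 and 251.5 in NTG ventricles. In caPI3K the values were 227.2, 173.1 and 147.2, so the arrays of the 3 groups followed each other with no overlap. Lamb3 rose in dnPI3K against NTG (1.44 ± 0.313, adjusted p = 0.0436), differed by -0.82 ± 0.313 in caPI3K against NTG without passing, and was 4.8-fold lower in caPI3K than in dnPI3K (-2.26 ± 0.313, adjusted p = 0.00337). The caPI3K difference from NTG was -0.85 in the lower animal number series and -0.77 in the higher one. The rise in dnPI3K lost its call when any array other than dnPI3K replicate 1 was left out (1.2 to 1.56, adjusted p up to 0.161), NTG replicate 2 among them (1.501, adjusted p = 0.108). A dimmer second Lamb3 probe set was at 0.30 ± 0.288 in dnPI3K against NTG, and it too was lower in caPI3K than in dnPI3K (-1.29 ± 0.288, adjusted p = 0.0367). Lama3, the alpha chain that pairs with Lamb3 in epithelia, was close to the floor, at 65.1, 40 and 39.8 in dnPI3K against 46.4, 34 and 37 in NTG.

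None of the 8 other tested laminin chains passed in any comparison. Lama2, the alpha chain of the cardiomyocyte basement membrane, differed by -0.33 ± 0.158 in dnPI3K against NTG and by 0.47 ± 0.158 in caPI3K against dnPI3K. Lama1, an alpha chain of the embryo, was dim and spread widely (0.89 ± 0.544 in dnPI3K against NTG). Lama4, the alpha chain of vascular endothelium, read 1127, 1108 and 1207 in dnPI3K against 1061, 910.7 and 1014 in NTG, a separation of 0.21 ± 0.0996. Lama5 (0.04 ± 0.109), Lamb1 (-0.09 ± 0.135) and Lamb2 (0.11 ± 0.151) stayed within 0.2 on the log2 scale of NTG. Lamc1, the gamma chain shared by the heart's laminins, read 974.8, 1052 and 1277 in caPI3K, against 916.6, 521.6 and 438.4 in NTG. All caPI3K values were higher, at 0.88 ± 0.232 with an adjusted p of 0.422. Without NTG replicate 1 this became 1.196 with an adjusted p of 0.041. This brightest Lamc1 probe set can share sequence within a gene family. A dimmer Lamc1 probe set was at 0.275 ± 0.303 in caPI3K against NTG, with overlapping arrays. In caPI3K against dnPI3K it was at -0.152 ± 0.303, where the brightest was at 0.503 ± 0.232.

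**Figure D2:**
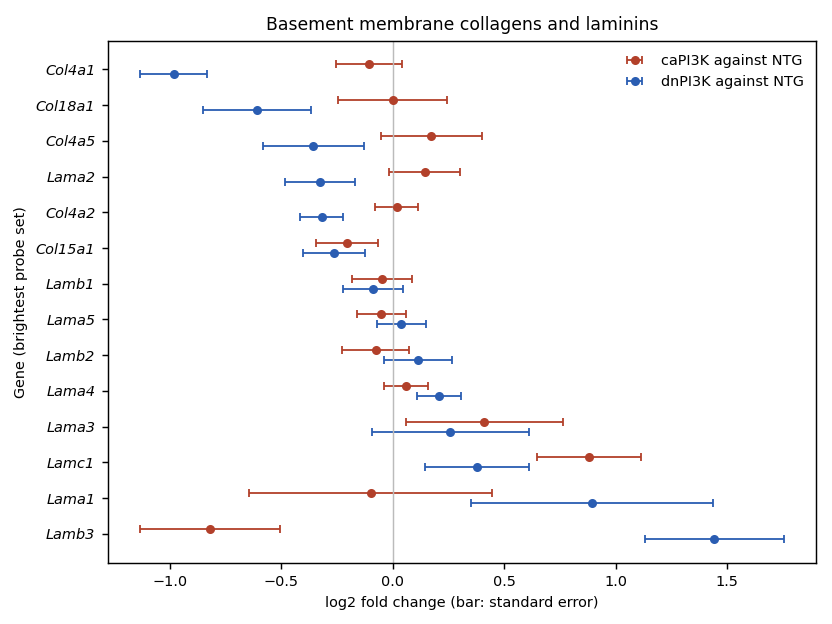
Log2 fold change (x axis, with standard error bars) of the 14 tested basement membrane genes (y axis), in caPI3K (red) and dnPI3K (blue) against the same 3 NTG arrays, ordered by the dnPI3K value. Col4a1 at -0.98 and Lamb3 at 1.44 mark the ends of the dnPI3K order, and the caPI3K value of Lamb3 lies on the other side of 0.

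Among the other collagens, Col8a1, a short-chain collagen of vessel walls, read 737.1, 669.5 and 644.6 in caPI3K ventricles against 432.1, 326.5 and 294.6 in dnPI3K ventricles, with 519.2, 487.3 and 658.9 in NTG. The dnPI3K arrays lay below all others, and the caPI3K and NTG arrays overlapped. Col8a1 was 1.97-fold higher in caPI3K than in dnPI3K (0.98 ± 0.179, adjusted p = 0.0157), and its difference from NTG in dnPI3K did not pass (-0.67 ± 0.179, adjusted p = 0.0953). The call was lost without caPI3K replicate 1 or 2 or dnPI3K replicate 2 or 3 (adjusted p up to 0.069). Col6a1, a chain of the beaded filaments around muscle cells, showed the same order at a smaller size (0.35 ± 0.0982 in caPI3K against dnPI3K, adjusted p = 0.0877), whereas Col6a3 was 0.34 ± 0.121 in caPI3K against NTG (adjusted p = 0.586). The remaining collagens of this class had no adjusted p under 0.25 in any comparison. They include Col9a3 (-0.53 ± 0.249 in caPI3K against dnPI3K), Col10a1 (-0.85 ± 0.368), Col12a1 (0.74 ± 0.416 in caPI3K against NTG) and Col13a1 (0.71 ± 0.390 in dnPI3K against NTG), all below 400 units on every array.

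Among fibre, microfibril and matricellular proteins, Mfap5, a glycoprotein of elastic microfibrils, read 623.4, 820.4 and 758.5 in caPI3K ventricles, against 430.6, 355.2 and 526.6 in dnPI3K ventricles, and 626.2, 513.4 and 507.3 in NTG. The transgenic groups did not overlap and the NTG values lay across the gap between them. The difference was 1.69-fold (0.76 ± 0.178, adjusted p = 0.047). This call stands at the threshold: 13 of 21 alternative settings lost it, the second Mfap5 probe set was at 0.03, and averaging both gave 0.39. Mfap4, near the floor in dnPI3K (31.9 to 49.2), was at 1.45 ± 0.522 (adjusted p = 0.182). Without NTG replicate 1, itself near the floor, Mfap4 passed at 1.46 (adjusted p = 0.0371) and was at -1.98 in dnPI3K against NTG (adjusted p = 0.0273). A second Mfap4 probe set had the opposite sign in both comparisons (-0.25 ± 0.471 and 0.11 ± 0.471), and averaging the probe sets gave 0.60 and -0.58, neither past the threshold. Postn, a matricellular protein that activated fibroblasts secrete, read 1267, 1300 and 1094 in caPI3K and 1109, 831.3 and 1126 in dnPI3K, against 1033, 516.7 and 633.1 in NTG. Both transgenic means lay above NTG, by 0.80 ± 0.226 for caPI3K (limma adjusted p = 0.463) and 0.54 ± 0.226 for dnPI3K (limma adjusted p = 0.297). Without NTG replicate 1, whose value was the high NTG one, the values were 1.09 against NTG for caPI3K mice, adjusted p = 0.042, and 0.83 for dnPI3K mice, adjusted p = 0.0489. Without NTG replicate 2 they were 0.59 and 0.33, neither past the threshold. The abundant proteoglycan genes differed little: Dcn was at 0.05 ± 0.0856 in caPI3K and 0.02 ± 0.0856 in dnPI3K against NTG, Bgn at 0.34 ± 0.179 and 0.31 ± 0.179, and Lum at 0.26 ± 0.146 and 0.03 ± 0.146. Fbln2, a fibulin of vessel walls and valves, was at -0.42 ± 0.144 in caPI3K against dnPI3K, and Fbn2, a fibrillin of elastic fibres, at 0.77 ± 0.371.

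No metalloproteinase passed in any comparison of the limma fit. With 7 tested and at most 3.46% of all genes called, this is near the background. In caPI3K against dnPI3K 2 of the 7 (28.6%) were under an unadjusted p of 0.05, beside 17.1% of all genes. In dnPI3K and in caPI3K against NTG it was 0, beside 14.9% and 7.21% of all genes. Of the 14 proteinase genes, 7 were too dim to test through their brightest probe set. Mmp14, a membrane-bound enzyme that cuts fibrillar collagen and activates Mmp2, read 934.3, 1027 and 768.3 in caPI3K ventricles against 531.4, 548.3 and 656.2 in dnPI3K ventricles, with 884.2, 586.4 and 702 in NTG. Its caPI3K arrays all lay above its dnPI3K arrays, at 0.65 ± 0.174 with an adjusted p of 0.0776. With array weights, or when the fit held these groups alone, Mmp14 passed, with an adjusted p of at least 0.0458 over all settings. The other tested proteinases (Mmp2, Mmp3, Mmp11, Mmp12, Mmp13 and Mmp17) were under 250 units on every array. Mmp13, a collagenase, read 45.5 to 65.5 in caPI3K and 44.8 to 61.2 in dnPI3K, against 67 to 85.2 in NTG, and Mmp17 read 86.8 to 105 in caPI3K against 119 to 156 in NTG.

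Among the inhibitors, Timp3, the matrix-bound inhibitor of metalloproteinases, read 1572, 1491 and 1828 in caPI3K ventricles against 2592, 3035 and 3002 in dnPI3K ventricles, with 1799, 2304 and 2792 in NTG. The transgenic groups lay apart and the NTG arrays spread over the range between and into both. Timp3 was 1.77-fold lower in caPI3K than in dnPI3K (-0.82 ± 0.151, adjusted p = 0.016), with -0.48 ± 0.151 in caPI3K and 0.34 ± 0.151 in dnPI3K against NTG, neither past the threshold. Within the lower and higher animal number series the caPI3K difference from NTG was -0.41 and -0.61. The call was lost without caPI3K replicate 1 or 2 or dnPI3K replicate 2 or 3 (adjusted p up to 0.0781). Timp2, which also takes part in the activation of Mmp2, read 449, 492 and 505.3 in caPI3K against 761.7, 684.4 and 732.1 in dnPI3K, with 671.6, 614.2 and 430.9 in NTG. The difference between the transgenic groups had the sign of Timp3 (-0.59 ± 0.168, adjusted p = 0.0957), and a dimmer probe set gave -0.75 ± 0.262. Timp1 had the opposite sign (0.43, adjusted p = 0.33) with overlapping arrays.

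Among cross-linking enzymes, Lox, the oxidase that starts collagen cross-linking, was under 90 units on all arrays, with 34.9, 24 and 23.3 in caPI3K, all below the floor, against 70.7, 67.2 and 86.5 in dnPI3K. Its fitted difference of -1.07 ± 0.322 (adjusted p = 0.111) depends on the floor, and its relative Loxl1 was at -0.34 ± 0.267. Ddr2, a kinase receptor that fibroblasts carry and that fibrillar collagen activates, read 297.5, 311.7 and 223 in dnPI3K ventricles, against 577, 613.4 and 532 in NTG ventricles, with 514.7, 590.6 and 589.6 in caPI3K. The dnPI3K arrays lay far below the other 6, which overlapped. Ddr2 fell 2.09-fold in dnPI3K (-1.06 ± 0.166, adjusted p = 0.00947), and it was 2.05-fold higher in caPI3K than in dnPI3K (1.04 ± 0.166, adjusted p = 0.00744), with -0.02 ± 0.166 in caPI3K against NTG. Both calls held under all 21 alternative settings, among them the omission of NTG replicate 2 (-1.015 in dnPI3K, adjusted p = 0.0454). Ddr1, the receptor found in epithelia that also binds basement membrane collagen, read 596.5, 512.4 and 788.2 in dnPI3K against 617, 541 and 686.4 in NTG. The ratio of Ddr2 to Ddr1 was lower on every dnPI3K array than on any NTG array, with a difference of -1.09 on the log2 scale, where the exact two-sided permutation p was 0.1, the smallest possible. It was also lower on every caPI3K array than on any NTG array (-0.39, exact p = 0.1). There Ddr2 hardly differed, while Ddr1 read 741.7, 823.8 and 802.6 in caPI3K, above every NTG array (0.37 ± 0.166, limma adjusted p = 0.716). The ratio of Col1a1 to Col1a2 was higher on every caPI3K array than on any dnPI3K array (0.75) or NTG array (0.65), both at an exact p of 0.1, and overlapped between dnPI3K and NTG (-0.10, exact p = 0.9). All ratios were taken between brightest probe sets. Of the 9 ratio comparisons 7 had this smallest p, which says only that the arrays of the groups did not overlap. No share over other gene pairs stands beside this count. With 3 against 3 arrays no ratio could pass a threshold of 0.05, before or after adjustment (0.129 at the lowest).

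**Figure D3:**
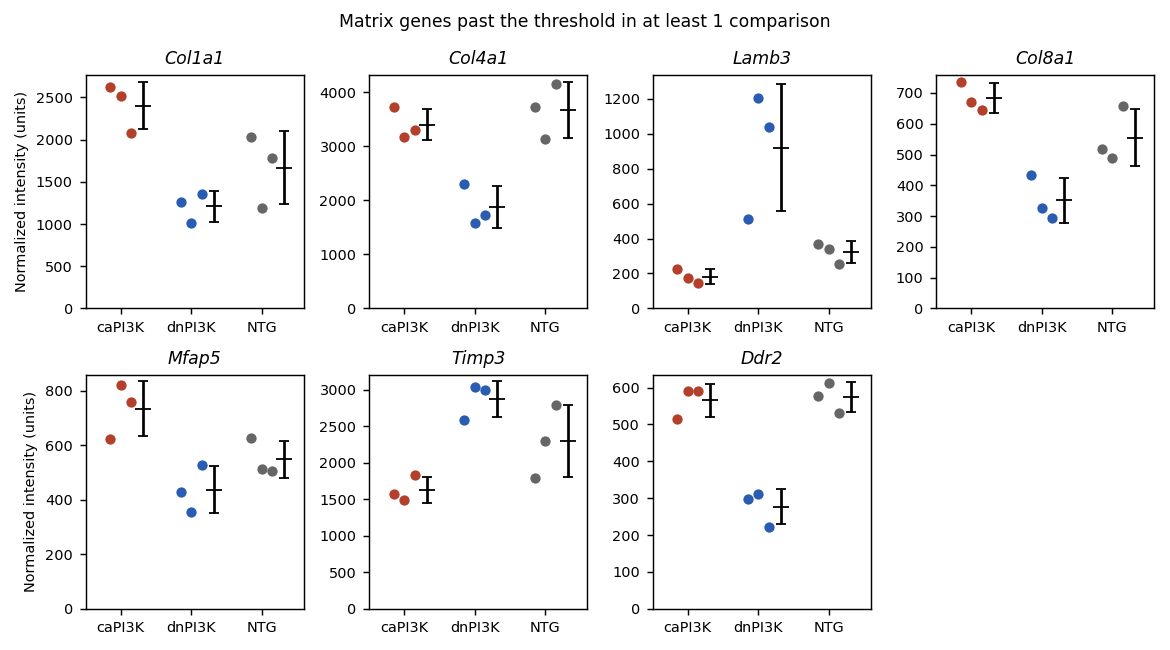
Normalized intensity (y axis, from 0) on each array (points) of the 7 matrix genes past the threshold in at least 1 comparison, in caPI3K, dnPI3K and NTG ventricles, with the mean and SD of 3 arrays as bars. For Ddr2 and Col4a1 the dnPI3K arrays lie below all others, for Lamb3 the 3 groups do not overlap, and for Timp3 the NTG arrays span the gap between the transgenic groups.

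For 20 of the tested matrix genes, 24 further probe sets could be tested. Their sign was that of the brightest probe set for 19 of 24 in caPI3K against dnPI3K, for 11 in dnPI3K against NTG and for 14 in caPI3K against NTG. Col1a1, Col3a1 and Lamb3 had the same direction on their tested probe sets in caPI3K against dnPI3K. For Col5a1 the second probe set was close to 0 (0.06 ± 0.180, where the brightest was at 0.42 ± 0.125). Probe sets of opposite sign there included those of Col18a1 (-0.82, brightest 0.61), Lamc1 (-0.15, brightest 0.50), Mfap4 (-0.25, brightest 1.45) and Mmp2 (-0.37, brightest 0.52). In dnPI3K against NTG, 13 of the 24 had the opposite sign, among them those of Col5a1 (0.47 ± 0.180, where the brightest was at -0.24 ± 0.125) and Mfap5 (0.39 ± 0.384, where the brightest was at -0.34 ± 0.178).

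**Figure D4:**
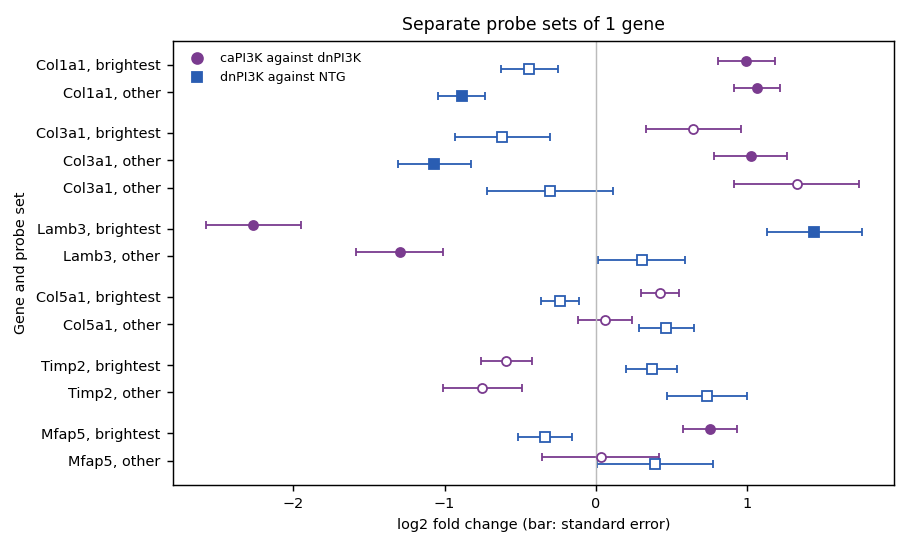
Log2 fold change (x axis, with standard error bars) of each tested probe set of 6 matrix genes (y axis), for caPI3K against dnPI3K (circles) and dnPI3K against NTG (squares); filled symbols passed the threshold. The Col1a1 probe sets lie at 0.99 and 1.07 in caPI3K against dnPI3K, and the Mfap5 probe sets lie at 0.76 and 0.03.

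Position in the genome was compared as well. By the RefSeq gene order, 8 pairs of matrix genes are direct protein-coding neighbours. Besides Col4a1 and Col4a2 these include Col3a1 with Col5a2, Col6a1 with Col6a2, and Dcn with Lum. In caPI3K against dnPI3K the values were 0.64 ± 0.312 and 0.76 ± 0.327 for Col3a1 and Col5a2, 0.35 ± 0.0982 and 0.19 ± 0.217 for Col6a1 and Col6a2, and 0.02 ± 0.0856 and 0.22 ± 0.146 for Dcn and Lum. Of these genes, only Col4a1 passed through its brightest probe set.

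Genes that process collagen or bind matrix were listed apart. Of 13 tested collagen processing genes, 3 were higher in caPI3K than in dnPI3K and 0 were lower, beside 1.86% and 1.6% of all genes. Over the whole list 6 genes lay above 0 and 7 below, with a median of -0.09, so most of its members did not share the direction of the 3. The summed intensity of the list was higher in caPI3K (12407 to 13573) than in dnPI3K (10781 to 11314) or NTG (10669 to 11996), with no overlap. P4hb, measured by a probe set designed under relaxed rules and a subunit of the prolyl hydroxylase that stabilises the collagen helix, read 1162, 1686 and 964.5 in caPI3K against 480.7, 469 and 619.6 in dnPI3K, with 595, 472.1 and 363.2 in NTG (1.25 ± 0.232 in caPI3K against dnPI3K, adjusted p = 0.016). Its caPI3K arrays lay above all others, and against NTG it was at 1.40 ± 0.232 (adjusted p = 0.0738). Serpinh1, a collagen chaperone, was 0.70 ± 0.139 higher in caPI3K than in dnPI3K (adjusted p = 0.0227), and P4ha2, a catalytic subunit of the hydroxylase, 0.38 ± 0.0875 higher (adjusted p = 0.043). None of the 13 passed against NTG in the limma fit. Of 21 tested integrins and other matrix receptors, 2 rose in dnPI3K against NTG and 0 fell, beside 1% and 1.22% of all genes. The list had 12 genes above 0 and 9 below, while its summed intensity was lower in dnPI3K (21866 to 22523) than in NTG (22926 to 24262) with no overlap. The genes that rose were Itgb5 (0.74 ± 0.148, adjusted p = 0.0333) and Itgav (0.71 ± 0.132, adjusted p = 0.0238), which form a receptor for vitronectin, while Itgb1, the beta chain of the collagen and laminin receptors, was at -0.27 ± 0.0946. Without NTG replicate 2 both calls were lost, Itgb5 at 0.82 (adjusted p = 0.0549) and Itgav at 0.64 (adjusted p = 0.087). Of 8 other basement membrane genes, 1 rose in dnPI3K against NTG and 0 fell, beside 1% and 1.22% of all genes. This was Smoc2, a calcium-binding matricellular protein, at 1256, 1165 and 1286 against 787.3, 759.7 and 783.2 in NTG (0.67 ± 0.0945, adjusted p = 0.00667). Smoc2 kept its call without NTG replicate 2 (0.65, adjusted p = 0.0283). In caPI3K against NTG it had the same sign without passing (0.355, limma adjusted p = 0.441).

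Markers of the cells that make matrix were read beside these results. The 10 fibroblast markers outside the matrix list summed to 13454 to 15323 on caPI3K arrays, 17528 to 19317 on dnPI3K arrays and 15437 to 17887 on NTG arrays. The caPI3K sum thus lay below both the dnPI3K and the NTG sums, which overlapped each other. Counted gene by gene, with the matrix genes on the list included, 12 of 17 fibroblast markers lay above 0 in caPI3K against dnPI3K, with a median of 0.13. The matrix genes among them (Col1a1, Col1a2, Col3a1, Ddr2, Postn, Dcn and Lum) were all above 0. This count and median therefore repeat in part the matrix values and are no separate reading of fibroblasts. Outside the matrix list the signs were mixed. The abundant gene Gsn makes up much of the sum of 10 markers and was itself lower in caPI3K than in dnPI3K (-0.43 ± 0.0960, adjusted p = 0.0358). Pdgfra, a defining fibroblast marker, was at 0.07 ± 0.171. The sum of 12 endothelial markers was 15634 to 17754 in caPI3K, 17126 to 17942 in dnPI3K and 16149 to 18349 in NTG, with 0 genes past the threshold. Smooth muscle and pericyte markers (9 genes) summed to 4699 to 5446 in caPI3K, 6920 to 7926 in dnPI3K and 5624 to 6282 in NTG. The 3 groups did not overlap and stood in the order of Lamb3, and Acta2, smooth muscle actin, rose in dnPI3K against NTG (0.997 ± 0.175, adjusted p = 0.0176), a call lost without NTG replicate 2 (0.94, adjusted p = 0.0689). Leukocyte markers (14 genes) overlapped in all comparisons, as did cartilage and bone markers (128 to 205 in caPI3K, 161 to 191 in dnPI3K, 118 to 206 in NTG). Skeletal muscle markers (12 genes) summed to 15421 to 22230 in caPI3K, 4003 to 4892 in dnPI3K and 8794 to 12323 in NTG, an order with no overlap, and Casq1 and Myl1 were lower in dnPI3K than in both other groups, also without NTG replicate 2. Atrial markers (7 genes) spread widely, at 2892 to 14265 in caPI3K, 9279 to 11969 in dnPI3K and 2677 to 22279 in NTG. Of these, Myl4 and Myl7 fell in dnPI3K against NTG (Myl4 at 27.9 to 49.7 against 222.7 to 6896), calls lost without NTG replicate 2 (adjusted p = 0.131 and 0.156). The list did not move as 1 in that comparison, with 5 genes below 0 and 2 above. Those above were Nppa (1.48, limma adjusted p = 0.148) and Sln (0.74, limma adjusted p = 0.456). Nppa was lower in caPI3K than in dnPI3K (-2.22 ± 0.461, adjusted p = 0.0282). The part of these cell types in the matrix results was not tested.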

How the data were processed

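RNA from ventricles was hybridised to 9 arrays whose titles carry different animal numbers, and scanned at a photomultiplier setting of 10%, per the labels. The deposited table holds 1 intensity per probe set and array on a linear scale. Its 2% trimmed mean is 500.4 on every array, so the authors' values had been scaled to a common level, and no source used here gives the summarisation software. Groups were read from the sample titles. Replicate numbers are accession order and pair nothing. Gene symbols come from the platform annotation, and all 73 member genes had the same symbol in RefSeq (GRCm38.p6). The files name no genome build.

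The deposited intensity values were quantile normalized between arrays. Values under the 20th percentile (35.34) were set to it before log2 was taken. Testing required a value above this floor on at least 3 of 9 arrays, after 66 control probe sets were left out. This left 10645 probe sets. All 9 arrays entered 1 limma 3.58.1 fit in R 4.3.3 with moderation that follows an intensity trend with group as its only term. P-values are two-sided and adjusted by Benjamini-Hochberg over all probe sets tested, with a threshold of 0.05. Means, SDs and single values are normalized intensities before the floor, and SEs are moderated. Intensities of different probe sets are not comparable with each other. The labels do not say whether mice came from separate litters, and p-values measure only the spread between these arrays, whose number limits the precision. The members and gene lists were chosen with earlier results of these data known. Named genes are those past the threshold, the markers Col1a1, Col4a1, Col8a1, Timp3 and Ddr2, up to 4 per role and comparison with the smallest p, genes with a discordant probe set, and partner chains. The alternatives were other scalings, floors, filters, moderation settings and weights, other handling of several probe sets per gene, fits of the compared groups alone, blocking on the series of animal numbers, and the omission of each array. The procedure was tested on simulated data.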

Additional observations from a re-analysis of the deposited data

Results flagged for a closer look

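For 7 matrix genes the effects of the transgenes against the same NTG mice differed by the test of the difference itself, which equals caPI3K against dnPI3K in the limma fit. The log2 differences, caPI3K effect minus dnPI3K effect, were 0.995 for Col1a1, 0.878 for Col4a1, 0.979 for Col8a1, 0.756 for Mfap5, 1.038 for Ddr2, -2.264 for Lamb3 and -0.821 for Timp3. In Ddr2 and Col4a1 the caPI3K effect was near 0 (-0.02 and -0.11) and the dnPI3K effect was not, whereas in Lamb3, Timp3, Col1a1, Col8a1 and Mfap5 the fitted effects had opposite signs, of which only the Lamb3 rise in dnPI3K passed on its own.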

How the results depend on the processing

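The count of matrix genes past the threshold in dnPI3K against NTG was 3, and it was 1 (Ddr2) with no filter on dim probe sets or with no intensity trend. It lay at 2 to 4 with 1 array left out. In caPI3K against dnPI3K the count of 7 became 3 (Col8a1, Ddr2 and Lamb3) under each of the same settings and lay at 2 to 8 with 1 array left out. The lowest was without dnPI3K replicate 2 (Ddr2 and Lamb3), and without caPI3K replicate 1 or 2 it was 3 (Col4a1, Ddr2 and Lamb3). In caPI3K against NTG the count of 0 lay at 0 to 2 with 1 array left out, and was 2 (Lamc1 and Postn) without NTG replicate 1. It was 0 when blocked on series of animal numbers and in the other settings. Averaging the probe sets of a gene gave 3 calls in dnPI3K against NTG, but with Col1a1 (-0.66, adjusted p = 0.0324) in place of Lamb3 (0.87, adjusted p = 0.127). Without NTG replicate 2 the calls against NTG of Lamb3, the second Col3a1 probe set, Itgb5, Itgav, Acta2, Myl4 and Myl7 were lost. No called matrix gene changed sign under any setting. The cause of the lost calls was not tested. Over all probe sets, median scaling left 135 probe sets higher and 93 lower in dnPI3K against NTG, beside 108 and 124 in the reported fit, and moved the median of all probe sets by at most 0.04. No paired analysis was possible because the labels carry no replicate numbers. Dim genes such as Lox, Mfap4, Lama3 and most proteinases are limited by the floor.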
